A study of Homo sapiens with 24 samples.

Results

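The pregnancy-specific glycoproteins (PSG) were followed in SW872 cells, an established human liposarcoma line. The members were taken by gene symbol and Ensembl identifier: all 10 protein-coding PSG genes (PSG1 to PSG9 and PSG11) among the 60279 genes counted in each library. The family was selected on the measured rise of PSG4 in sub-confluent against confluent empty vector cells, so the values of that contrast are described here without a test. Of the 10 genes, 9 passed the filter (5 counts or more on average across the 24 libraries) and entered the test with 19997 genes in all. PSG3, with a mean of 2.29 counts, did not. Several members passed only through the groups in which they were high, so counts over the tested members describe them and carry no further weight.

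PSG proteins are secreted glycoproteins of the immunoglobulin superfamily, the branch of the carcinoembryonic antigen (CEACAM) family that has no membrane anchor. The syncytiotrophoblast of the placenta makes them in quantity and they are abundant in maternal blood during pregnancy. Members have been described to bind integrins, heparan sulfate proteoglycans and the tetraspanin CD9, and to release transforming growth factor beta from its latent complex. They are not typical products of fat or mesenchymal cells.

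Poly(A) RNA was sequenced in 8 groups of 3 libraries, with totals of 19700277 to 35287476 counts per library. Every line carried the retroviral vector pBabeNeo and was a drug-selected stable pool, and not a clone. The vector was empty (EV), or carried TAZ-CAMTA1 or YAP-TFE3, the fusion proteins of epithelioid hemangioendothelioma, or TAZ4SA or YAP5SA, forms of the coactivators TAZ and YAP that escape phosphorylation by Hippo pathway kinases, or full-length TFE3. These 6 groups were collected 48 h after confluence, while full-length CAMTA1 was taken at sub-confluence, per the labels, as was a second empty vector set by its titles (EVsub). The methods speak of lines containing CAMTA1, and whether this covers TAZ-CAMTA1 is not stated. The sources call replicates biological. The paper says that those of its sequencing studies were transduced separately and then selected, so p-values measure the spread between such pools.

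Of the genes behind the constructs, CAMTA1, TFE3 and YAP1 were higher than in EV in the TAZ-CAMTA1, TFE3 and YAP5SA libraries, respectively, with log2 fold changes of 2.75, 1.49 and 0.99, and CAMTA1 was higher than in EVsub in the CAMTA1 libraries, by 2.43. WWTR1, which encodes TAZ, went against the label: it was 134 CPM (edgeR's unit of counts scaled to library size) in the libraries labelled TAZ4SA against 204 CPM in EV, a log2 difference of -0.60. In TAZ-CAMTA1 it was 181 CPM and did not pass the test against EV (log2 difference -0.17). WWTR1 was also below its EV level in YAP5SA, at 68.7 CPM, and in YAP-TFE3, at 126 CPM. In YAP-TFE3, TFE3 was higher than in EV by 1.25 and YAP1 by 0.26. The paper shows TAZ4SA protein in SW872 cells by western blot for its Flag tag. The TAZ4SA libraries are named by their label throughout. The mesenchymal markers VIM, FN1, PDGFRB, THY1, COL1A1 and COL1A2 were detected in every group, with a sum of 1923 to 7601 CPM. Of the adipocyte markers, ADIPOQ was at 0 in all groups and PPARG and LPL were detected. Epithelial markers summed to at most 4.14 CPM and blood markers to at most 0.130, and the endothelial markers PECAM1 and CDH5 to 5.06 to 73.4.

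The 10 genes lie in 1 cluster on the minus strand of chromosome 19 (GRCh38), from chr19:42721638-42740481 (PSG3) to chr19:43211791-43269530 (PSG9). PSG4 is at chr19:43192702-43207299 and PSG5 beside it at chr19:43166256-43186536. Their longest coding sequences share 90.4% to 94.9% of aligned bases over the 45 pairs. A stretch as long as 1 sequencing read can be the same in several members. The first line is such a coding stretch of 75 bases, found in PSG1, PSG3, PSG5, PSG7 and PSG8 and in no other gene's transcripts. The other lines are its closest matches in PSG4, PSG6 and PSG9, with differing bases in capitals (2 in PSG4, 3 in PSG6 and 3 in PSG9). They show how few bases separate the reads of one member from those of another.

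PSG1, PSG3, PSG5, PSG7 and PSG8: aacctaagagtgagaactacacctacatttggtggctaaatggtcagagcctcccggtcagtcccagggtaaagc
PSG4: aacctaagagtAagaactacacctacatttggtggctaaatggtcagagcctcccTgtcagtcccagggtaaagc
PSG6: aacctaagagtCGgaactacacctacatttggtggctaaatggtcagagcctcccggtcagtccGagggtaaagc
PSG9: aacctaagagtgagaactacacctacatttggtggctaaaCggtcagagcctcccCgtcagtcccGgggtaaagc

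The closest stretches of PSG2 and PSG11 differed at 24 and 23 of the 75 positions. Over all annotated transcripts, the share of 75-base windows found in no other gene was lowest for PSG9 (77.8%) and PSG8 (83.4%), and was 93.5% for PSG4 and 91.0% for PSG5. PSG9 overlaps the pseudogene CEACAMP10 on the same strand and shared 11.8% of its windows with it. How the counting treated reads with several alignments was not stated, so counts of single members are uncertain, and the sum over the family is given beside them.

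RefSeq promoter entries (GRCh38.p14) were used for PSG3, PSG4 and PSG5. The 250 bases before each RefSeq start are shown because PSG4 and PSG5 supplied most PSG counts and lie beside each other. Capitals mark the longest run found in all of them, of 54 bases.

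PSG3, chr19:42740482-42740731, minus strand: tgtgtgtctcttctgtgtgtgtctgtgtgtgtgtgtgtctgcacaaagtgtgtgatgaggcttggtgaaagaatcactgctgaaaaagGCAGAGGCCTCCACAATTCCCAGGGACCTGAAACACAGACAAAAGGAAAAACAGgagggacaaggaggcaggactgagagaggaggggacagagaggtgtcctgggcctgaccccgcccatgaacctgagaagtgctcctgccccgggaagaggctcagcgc
PSG4, chr19:43205639-43205888, minus strand: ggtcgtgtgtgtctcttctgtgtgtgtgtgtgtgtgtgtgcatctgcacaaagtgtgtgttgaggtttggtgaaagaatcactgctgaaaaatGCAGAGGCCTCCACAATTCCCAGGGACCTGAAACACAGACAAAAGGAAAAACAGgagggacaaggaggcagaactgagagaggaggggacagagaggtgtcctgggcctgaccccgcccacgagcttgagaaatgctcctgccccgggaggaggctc
PSG5, chr19:43186537-43186786, minus strand: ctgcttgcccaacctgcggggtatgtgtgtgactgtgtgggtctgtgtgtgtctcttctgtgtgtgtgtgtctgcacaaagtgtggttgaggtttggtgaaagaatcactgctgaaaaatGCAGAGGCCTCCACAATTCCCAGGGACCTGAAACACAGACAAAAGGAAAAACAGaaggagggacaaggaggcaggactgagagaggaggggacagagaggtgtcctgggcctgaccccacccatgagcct

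The windows of 300 bases, which run 50 bases past the start, were identical at 94.2% (PSG3 and PSG4), 95.5% (PSG3 and PSG5) and 96.5% (PSG4 and PSG5) of aligned bases. Each was searched on both strands for the TEAD motif GGAATG, the AP-1 motif TGANTCA and the E-box CACGTG that MiT/TFE factors bind. None of the 3 windows held any of these letters, which 14.03%, 7.71% and 7.26% of the 35116 RefSeq windows of this length held. These matches concern these windows only. The PSG4 window lies inside the longer GENCODE span of that gene given above, and part of it is first exon in 1 annotated GENCODE transcript.

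Summed over the family, the counts differed widely between groups. The libraries labelled TAZ4SA held 4699, 4732 and 3217 PSG counts and the YAP5SA libraries 4245, 3886 and 2616. EVsub held 646, 397 and 756 and CAMTA1 834, 584 and 219. YAP-TFE3 held 206, 243 and 306. EV held 45, 55 and 27, TFE3 54, 67 and 31, and TAZ-CAMTA1 33, 44 and 26. PSG counts were highest in YAP5SA and in the libraries labelled TAZ4SA, and lowest in EV, TFE3 and TAZ-CAMTA1. By raw counts CAMTA1 replicate 3 lay within the YAP-TFE3 range.

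Scaled to library size, the order from the highest was 172 ± 42.2 CPM (SD, n = 3, as for all levels) in the libraries labelled TAZ4SA, 164 ± 51.2 in YAP5SA, 21.3 ± 3.38 in EVsub, 18.4 ± 7.21 in CAMTA1, 7.73 ± 1.08 in YAP-TFE3, 1.65 ± 0.403 in EV, 1.54 ± 0.506 in TFE3 and 1.19 ± 0.358 in TAZ-CAMTA1. Neighbours in this order overlapped for TAZ4SA and YAP5SA, for EVsub and CAMTA1, and among EV, TFE3 and TAZ-CAMTA1. The YAP-TFE3 libraries, at 6.70 to 8.85 CPM, overlapped with neither EV (1.31 to 2.10) nor CAMTA1 (10.8 to 25.1). In these bulk libraries, more cells that express PSG genes and more PSG RNA per cell cannot be told apart. No p-value is given for the sum, since the members were chosen with results known.

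**Figure D1:**
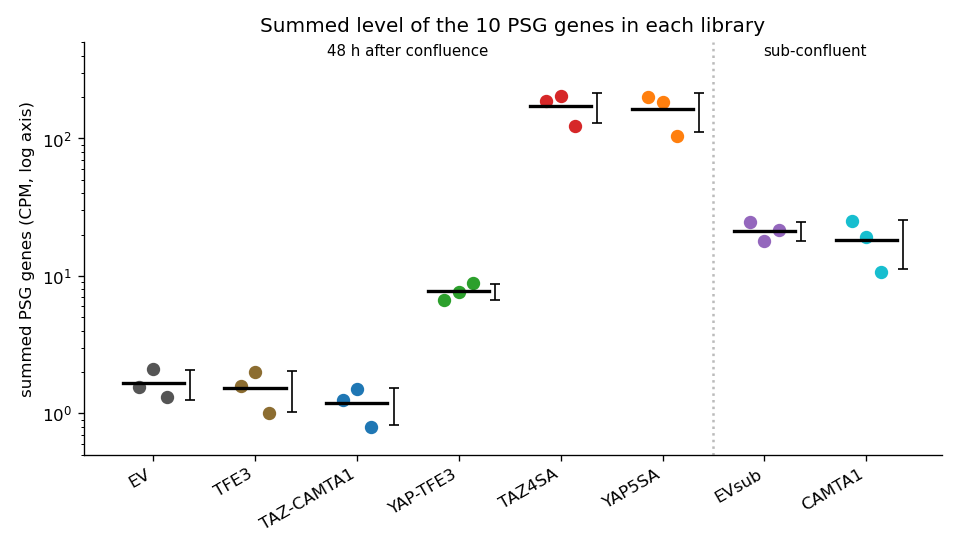
Summed CPM of the 10 PSG genes in each library (points, log axis), with the group mean (line) and SD (bar), for 8 groups of 3 libraries. The libraries labelled TAZ4SA and YAP5SA sit between 105 and 203 CPM, EVsub and CAMTA1 between 10.8 and 25.1, YAP-TFE3 between 6.70 and 8.85, and the other groups at 2.10 or less.

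In EVsub against EV, the contrast that brought the family up, the sum was 12.9-fold higher. PSG4 held 393, 250 and 474 counts in EVsub and 20, 28 and 11 in EV, a log2 difference of 4.09. PSG5 held 133, 82 and 163 against 18, 15 and 9, a log2 difference of 3.01, and PSG1, with 48, 27 and 42 against 1, 1 and 6, differed by 3.67. PSG9 differed by 2.79. On the CPM scale the EVsub and EV libraries overlapped for none of the 10 genes, with no share over all genes computed. PSG8 held 1 count in a library of each and stayed at 3 or fewer in both. PSG2, PSG3, PSG6, PSG7, PSG8 and PSG11 held at most 13 counts in any EVsub library. EV and EVsub are also the controls of the comparisons below, CAMTA1 against EVsub included. Tests against either are therefore not independent of the choice of family. The TFE3, TAZ-CAMTA1, YAP-TFE3, YAP5SA and TAZ4SA libraries were not in that contrast, but the members were chosen with earlier results of these data known.

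The first question was whether each protein shifted the family from its level in confluent cells. In the libraries labelled TAZ4SA all 9 tested members were higher than in EV, where 25.1% of all tested genes were higher and 24.2% lower. The median log2 fold change of the members was 6.59 and that of all tested genes -0.03. In YAP5SA against EV, again all 9 were higher, with a median of 6.57 against -0.04 over all genes, of which 22.7% were higher and 21.6% lower. The family sum was 104-fold and 98.9-fold higher, respectively. The libraries of neither group overlapped with EV for any of the 10 genes. The share of all genes without overlap was not computed, so this describes the members only.

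PSG4 carried the largest share of this signal. It held 2188, 2119 and 1715 counts in the TAZ4SA-labelled libraries, 2284, 2048 and 1668 in YAP5SA, and 20, 28 and 11 in EV. The levels were 81.7 ± 13.5, 90.8 ± 21.2 and 0.764 ± 0.274 CPM. The log2 fold change was 6.71 ± 0.29 (SE, as for all fold changes; edgeR adjusted p = 9.67e-15) for TAZ4SA and 6.86 ± 0.29 (edgeR adjusted p = 5.27e-15) for YAP5SA. Replicate 3 was the lowest in both groups, and also for PSG5.

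PSG5, the neighbour of PSG4, held 1532, 1535 and 856 counts in the TAZ4SA-labelled libraries, 1419, 1342 and 685 in YAP5SA, and 18, 15 and 9 in EV. It was higher by 6.59 ± 0.43 (edgeR adjusted p = 1.25e-11) and 6.57 ± 0.43 (edgeR adjusted p = 1.21e-11) on the log2 scale. Every library of both groups exceeded the highest EV library many times over.

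PSG1, the member best known for releasing latent transforming growth factor beta, held 290, 320 and 167 counts in the TAZ4SA-labelled libraries and 106, 97 and 62 in YAP5SA, against 1, 1 and 6 in EV. Its log2 fold changes were 6.58 ± 0.46 (edgeR adjusted p = 3.16e-11) and 5.18 ± 0.50 (edgeR adjusted p = 7.33e-09). PSG9 held 223, 204 and 114 and 106, 126 and 70 counts against 6, 8 and 0, for log2 fold changes of 5.29 ± 0.48 (edgeR adjusted p = 3.33e-09) and 4.61 ± 0.50 (edgeR adjusted p = 5.87e-08). Both genes were detected in EV in single digits.

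For the other members EV stayed at the floor of 3 counts or fewer in each library, so their folds are lower bounds computed against 3 counts per library. PSG6 held 139, 160 and 77 counts in the TAZ4SA-labelled libraries and 45, 53 and 26 in YAP5SA, which were at least 42.5-fold and at least 15.7-fold higher than EV, with 0 in all 3 EV libraries. PSG7 held 124, 160 and 69 and 169, 134 and 37, at least 40.0-fold and at least 43.6-fold higher. PSG11 was at least 34.6-fold and at least 16.8-fold higher, and PSG2 at least 29.3-fold and at least 12.3-fold higher. PSG8, with 16, 28 and 18 and 12, 11 and 8 counts, was at least 6.99-fold and at least 3.89-fold higher. The untested PSG3 held 9, 9 and 4 counts and 4, 2 and 1 counts against 0 in each EV library.

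**Figure D2:**
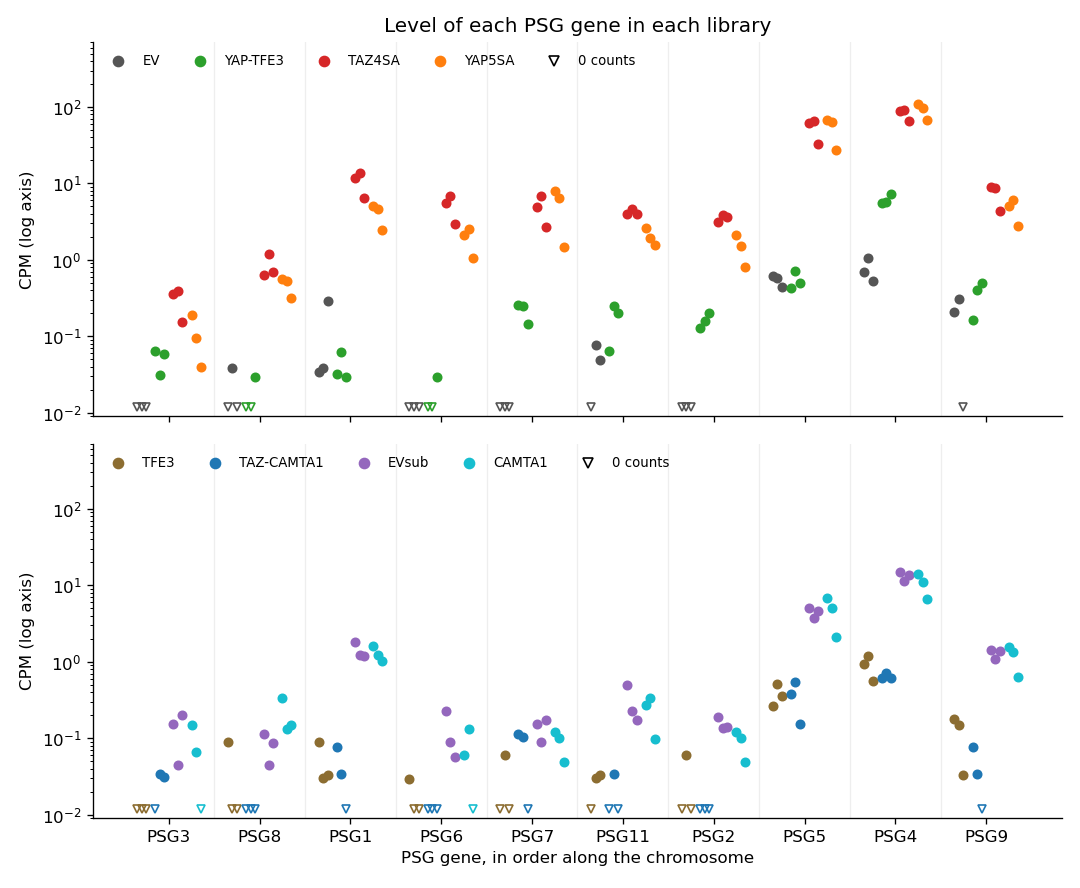
CPM of each PSG gene (log axis) in each library, by group, with libraries at 0 counts drawn as open triangles at the bottom. PSG4 and PSG5 are the highest genes in the TAZ4SA-labelled libraries and YAP5SA, and in YAP-TFE3 PSG4 stands apart while PSG5 lies among the EV values.

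YAP-TFE3 gave a different picture, in which mainly PSG4 rose. Of the 9 tested members 4 were higher than in EV and none lower, while 25.6% of all tested genes were higher and 22.6% lower. The median was 1.72 over the members and -0.01 over all genes. The members' median is the fitted value of PSG6 (1.72 ± 2.11), which held 0, 0 and 1 counts against 0 in each EV library. That median therefore depends on the model and carries no weight as a shift of the family. PSG4 held 171, 183 and 248 counts, all above the EV maximum of 28, and its log2 fold change was 2.98 ± 0.31 (edgeR adjusted p = 2.54e-08). PSG5 held 13, 23 and 17 counts against 18, 15 and 9, overlapping with EV, and its log2 difference was -0.02 ± 0.64 (edgeR adjusted p = 0.986). The family sum was 4.68-fold higher than in EV, a log2 ratio of 2.23 that was 0.82 with PSG4 left out.

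The other calls in YAP-TFE3 rested on few counts. PSG2 held 4, 5 and 7 against 0 in each EV library (edgeR adjusted p = 0.00184), at least 1.35-fold higher. PSG7 held 8, 8 and 5 against 0 (edgeR adjusted p = 0.0251), at least 1.81-fold higher. PSG11 held 2, 8 and 7 against 0, 2 and 1 (edgeR adjusted p = 0.0443), at least 1.43-fold higher, and its libraries overlapped with EV. The call of PSG7 was lost without any one of the EV libraries or without YAP-TFE3 replicate 2 (adjusted p of 0.0504 to 0.0675). That of PSG11 was lost without EV replicate 1 or 3 or YAP-TFE3 replicate 2 or 3, with total-count scaling and with DESeq2. Fitted on the compared groups only, 1 member was called, PSG4. In that fit PSG2, PSG7 and PSG11 averaged fewer than 5 counts over the libraries compared, so the filter removed them and they were not tested. PSG1 and PSG8 stayed at 0 to 2 counts, PSG6 at 0 to 1, and PSG9, at 5, 13 and 17 counts, did not pass the test (edgeR adjusted p = 0.266). The difference between the PSG4 and PSG5 fold changes was not tested.

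**Figure D3:**
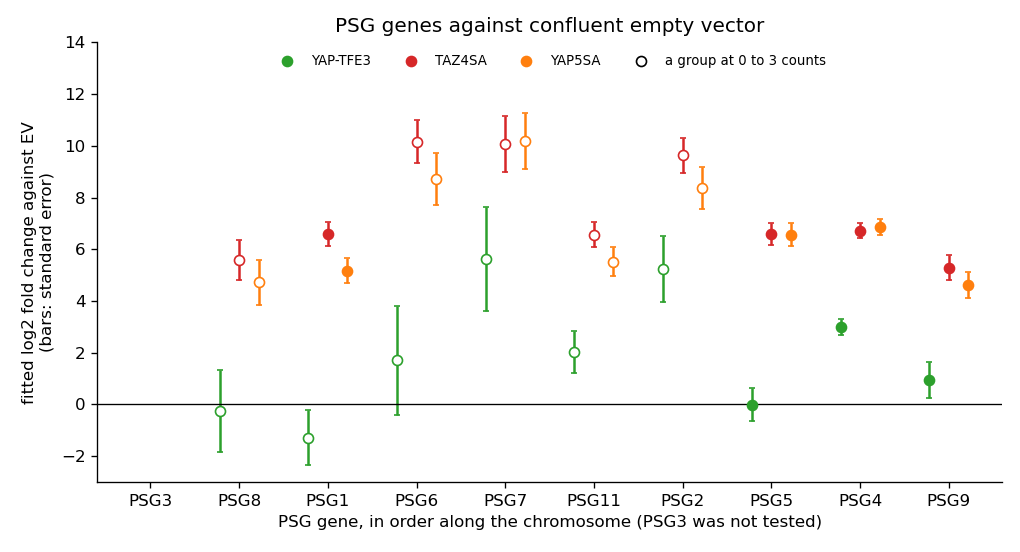
Fitted log2 fold changes against EV with standard errors for the 9 tested PSG genes in YAP-TFE3, TAZ4SA and YAP5SA. Open symbols mark genes with a group at 0 to 3 counts in each library, whose fitted value depends on the model. All TAZ4SA and YAP5SA values are above 4, and in YAP-TFE3 PSG4 is at 2.98 and PSG5 at -0.02.

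In TAZ-CAMTA1 and TFE3 no member passed the test against EV. PSG4 held 16, 21 and 20 counts in TAZ-CAMTA1 and 32, 39 and 17 in TFE3, overlapping with EV in both, with log2 differences of -0.26 ± 0.43 (edgeR adjusted p = 0.809) and 0.20 ± 0.40 (edgeR adjusted p = 1). PSG5 held 10, 16 and 5 and 9, 17 and 11. By edgeR 0 of 9 members were called in either, with 0 at an unadjusted p under 0.05, and DESeq2 called 0. The background of calls was 3.55% higher and 1.44% lower for TAZ-CAMTA1, and 0.035% higher and 0% lower for TFE3. The medians of the members were -0.64 and 0.20, beside 0.00 over all genes in both. At 16 to 39 PSG4 counts in these libraries, modest differences were not detectable.

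CAMTA1 is compared with EVsub, since both are labelled sub-confluent. PSG4 held 467, 330 and 135 counts in CAMTA1 and 393, 250 and 474 in EVsub, and PSG5 226, 151 and 43 against 133, 82 and 163. The libraries overlapped for both, with log2 differences of -0.31 ± 0.21 (edgeR adjusted p = 0.628) and 0.09 ± 0.34 (edgeR adjusted p = 0.97). None of 9 members was called, with 0 at an unadjusted p under 0.05 in edgeR and 0 by DESeq2, beside a background of 1.26% higher and 0.57% lower. The median was -0.22, and -0.01 over all genes. CAMTA1 replicate 3 had the lowest PSG sum of the 6 libraries.

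Setting TAZ-CAMTA1 beside the libraries labelled TAZ4SA, and YAP-TFE3 beside YAP5SA, uses no library of the contrast that brought the family up. However, PSG2, PSG6, PSG7, PSG8 and PSG11 passed the filter only through the TAZ4SA-labelled and YAP5SA libraries. Their being lower in the fusion libraries was therefore largely set by the filter and carries no further weight. In TAZ-CAMTA1 all 9 tested members were lower than in the libraries labelled TAZ4SA, where 26.9% of all genes were higher and 26.8% lower. The median was -7.58, against 0.03 over all genes, and the family sum was 145-fold lower. PSG4, with 16, 21 and 20 against 2188, 2119 and 1715 counts, differed by -6.97 ± 0.29 on the log2 scale (edgeR adjusted p = 8.81e-15), and PSG5 by -7.22 ± 0.45 (edgeR adjusted p = 5.22e-12). PSG1 was at least 103-fold and PSG9 at least 71.7-fold lower. The libraries overlapped for none of the 10 genes, and the matching share of all genes was not computed.

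In YAP-TFE3 all 9 tested members were lower than in YAP5SA, beside 28.1% of all genes higher and 24.3% lower. The median was -4.57, against 0.05 over all genes, and the sum was 21.2-fold lower. PSG4 differed by -3.88 ± 0.23 (edgeR adjusted p = 1.20e-12) and PSG5 by -6.58 ± 0.42 (edgeR adjusted p = 6.11e-12). PSG11, PSG2 and PSG9 differed by -3.50 ± 0.39, -3.12 ± 0.39 and -3.66 ± 0.43, and PSG1 was at least 43.5-fold lower. PSG8 was at least 5.07-fold lower. The untested PSG3, with 2, 1 and 2 against 4, 2 and 1 counts, overlapped between the groups.

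The libraries labelled TAZ4SA and YAP5SA overlapped in the summed level, at 124 to 203 and 105 to 200.5 CPM, but not in every member. PSG1 was 10.6 ± 3.76 CPM against 4.04 ± 1.35, higher by 1.40 ± 0.28 (edgeR adjusted p = 0.00199). PSG2, PSG6 and PSG11 were also higher in TAZ4SA, by 1.27 ± 0.27 (edgeR adjusted p = 0.00553), 1.45 ± 0.34 (edgeR adjusted p = 0.00977) and 1.04 ± 0.27 (edgeR adjusted p = 0.0186), on the log2 scale. PSG4 (-0.15 ± 0.20), PSG5 (0.02 ± 0.29), PSG7 (-0.12 ± 0.39), PSG8 (0.85 ± 0.42) and PSG9 (0.68 ± 0.32) did not pass the test. In all, 4 of 9 members were higher and 0 lower, beside 3.53% of all genes higher and 3.64% lower, and the median was 0.85 against 0.00. The call of PSG6 was lost without TAZ4SA replicate 2 or YAP5SA replicate 3, and that of PSG11 without either or without YAP5SA replicate 2.

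Per kilobase of annotated exon, PSG4 had the highest mean of all members in every group, though in EV, at 0.122 CPM per kilobase, it was close to PSG5 at 0.116. In the libraries labelled TAZ4SA, PSG4 was at 13.02 and PSG5 at 11.4 CPM per kilobase, PSG1 at 2.14, PSG9 at 1.46, PSG2 at 1.25 and PSG8 at 0.214. In YAP5SA PSG4 was at 14.5 and PSG5 at 11.3, and PSG7 at 1.09 was next. In EVsub PSG4 was at 2.11 and PSG5 at 0.955.

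As a share of all PSG counts, PSG4 supplied 48.2 ± 4.5% in the libraries labelled TAZ4SA, 56.8 ± 6.09% in YAP5SA, 62.2 ± 1.16% in EVsub, 58.0 ± 3.12% in CAMTA1 and 45.4 ± 5.15% in EV. In YAP-TFE3 it supplied 79.8 ± 4.0%, and PSG5 7.11 ± 2.07%. PSG5 supplied between 20.9 ± 0.543% (EVsub) and 33.5 ± 6.37% (EV) in the other groups. The 3 YAP-TFE3 libraries had PSG4 shares of 75.3% to 83.0%, above every library except 1 of TAZ-CAMTA1, at 76.9% of only 26 counts.

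**Figure D4:**
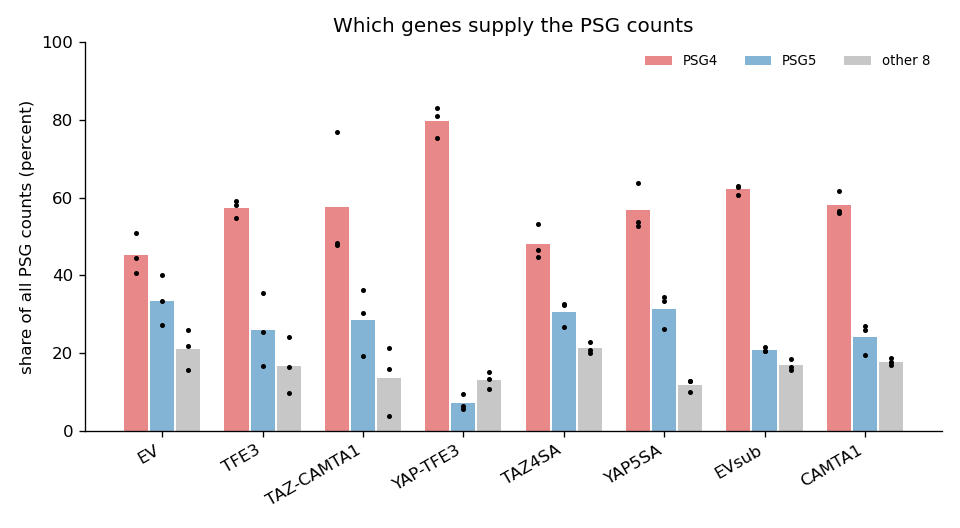
Share of all PSG counts (percent) from PSG4, PSG5 and the other 8 genes in each group; bars are means over 3 libraries and dots are libraries. In YAP-TFE3 PSG4 supplies 79.8% and PSG5 7.11%, while in the libraries labelled TAZ4SA they supply 48.2% and 30.6%.

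The cluster also holds pseudogenes of the CEACAM family. CEACAMP10, which overlaps PSG9, was at 41.8 ± 8.69 CPM in the libraries labelled TAZ4SA, 41.6 ± 9.12 in YAP5SA, 2.94 ± 0.169 in YAP-TFE3 and 0.258 ± 0.0576 in EV. Its log2 fold changes against EV were 7.29 ± 0.29 (edgeR adjusted p = 2.83e-15), 7.28 ± 0.29 (edgeR adjusted p = 2.06e-15) and 3.46 ± 0.34 (edgeR adjusted p = 1.09e-08). Of the 8 other genes between the members 4 were tested, and all 4 were higher in both TAZ4SA and YAP5SA than in EV, and 3 in YAP-TFE3. Of all tested genes, 25.1%, 22.7% and 25.6% were higher, respectively. Besides CEACAMP10, the tested genes were CEACAMP6, CEACAMP7 and CEACAMP8, which held at most 2, 4 and 6 counts in an EV library. PSG9 was at 7.37, 4.61 and 0.354 CPM in the TAZ4SA-labelled, YAP5SA and YAP-TFE3 libraries, below CEACAMP10 in each. Whether reads of the members were counted for these near copies, or reads of CEACAMP10 for PSG9, was not tested.

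Among genes within 500 kb on either side, few moved by comparable amounts. Before the cluster the libraries labelled TAZ4SA had 2 of 13 tested genes higher and 2 lower, and after it 7 of 16 higher and 1 lower, beside 25.1% and 24.2% of all genes. In YAP5SA 0 and 3 of 13, and 7 and 2 of 16, were higher and lower, beside 22.7% and 21.6%. With a mean of at least 100 counts, PLAUR, which encodes the urokinase receptor, was the gene with the largest difference, at 78.7 ± 10.9 CPM in TAZ4SA and 44.9 ± 7.10 in YAP5SA against 7.16 ± 0.862 in EV, higher by 3.46 ± 0.17 (edgeR adjusted p = 1.18e-13) and 2.65 ± 0.17 (edgeR adjusted p = 8.21e-12). ETHE1, KCNN4, PHLDB3 and CADM4 were higher in both, by 0.61 to 1.40. ERF and ZNF526 were higher in TAZ4SA, by 0.40 and 0.27, and TMEM145 and ZNF428 were lower in YAP5SA, by log2 differences of -1.11 and -0.49. GSK3A, CIC, PAFAH1B3, PRR19, LIPE, XRCC1, IRGQ, ZNF576 and SMG9 passed the test in neither.

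**Figure D5:**
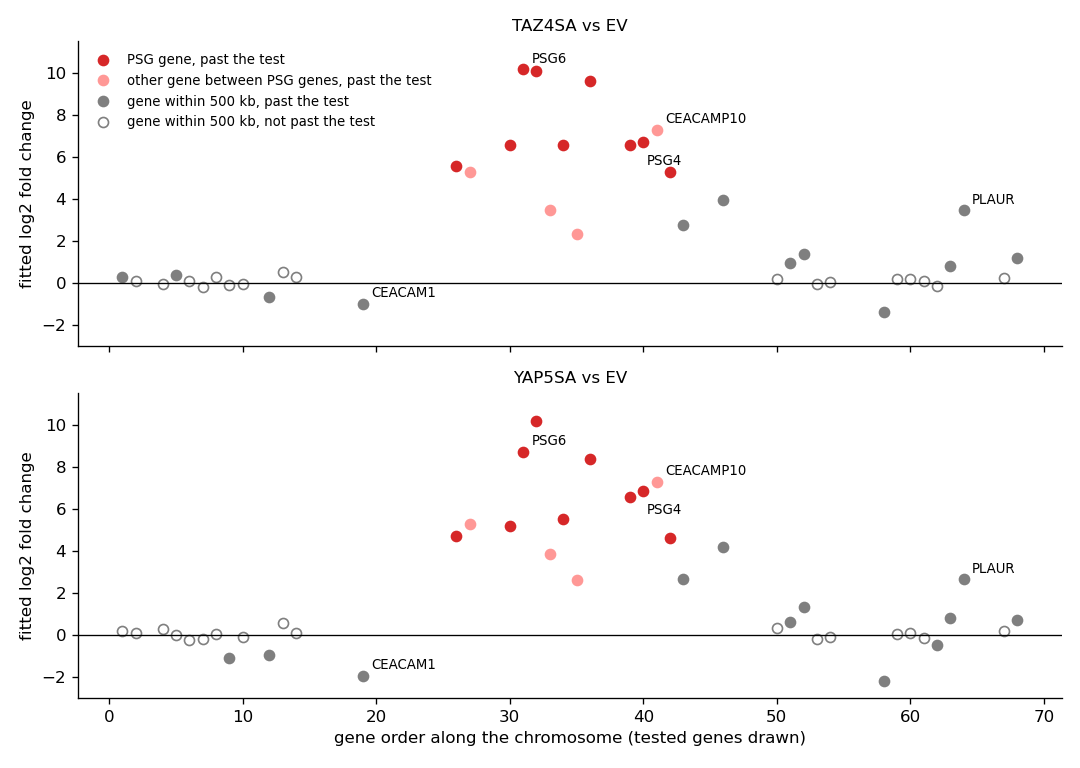
Fitted log2 fold change against EV of the tested genes from 500 kb before to 500 kb after the PSG cluster, in gene order, in the TAZ4SA-labelled libraries (top) and in YAP5SA (bottom); filled symbols passed the test, and fitted values of genes at 0 to 3 counts in EV depend on the model. The PSG genes lie between 4.61 and 10.19, CEACAM1 lies at -0.999 and -1.95, and PLAUR at 3.46 and 2.65.

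In the TAZ4SA-labelled libraries and in YAP5SA, the CEACAM relatives did not share one direction with the PSG genes. Of 12 CEACAM genes 3 were tested. CEACAM1, an adhesion molecule encoded next to the cluster, was at 5.12 ± 1.33 CPM in the TAZ4SA-labelled libraries and 2.65 ± 0.907 in YAP5SA against 10.2 ± 1.28 in EV, with log2 differences of -0.999 ± 0.24 (edgeR adjusted p = 0.00114) and -1.95 ± 0.26 (edgeR adjusted p = 1.19e-06). In YAP-TFE3 it was at 87.2 ± 24.1 CPM, higher by 3.10 ± 0.22 (edgeR adjusted p = 5.28e-11). CEACAM19 was higher in all 3 groups, by 1.16, 1.41 and 0.57. CEACAM21 passed the test in YAP-TFE3 only, higher by 1.71 ± 0.56 (edgeR adjusted p = 0.0146). It held 16 to 25 counts there against 4 to 7 in EV. In YAP-TFE3 all 3 tested CEACAM genes were thus higher, beside 25.6% of all tested genes. No CEACAM gene passed the test in TAZ-CAMTA1, TFE3 or CAMTA1.

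The 15 genes for reported PSG binding partners and for transforming growth factor beta signalling were all tested. In TAZ4SA-labelled libraries 9 were higher and 3 lower than in EV, beside 25.1% and 24.2% of all tested genes, and in YAP5SA 7 and 2, beside 22.7% and 21.6%. In YAP-TFE3 11 were higher and 1 lower, beside 25.6% and 22.6%, and in TAZ-CAMTA1 6 and 0, beside 3.55% and 1.44%. In edgeR 0 were called in TFE3 or in CAMTA1 against EVsub. The medians, in the same order, were 0.53, 0.19, 0.60, 0.26, -0.02 and 0.01, where those of all genes lay between -0.04 and 0.00. TGFB2, a ligand, was at 219.5 ± 15.7 CPM in TAZ4SA and 221 ± 22.1 in YAP5SA against 34.5 ± 5.94 in EV, higher by 2.67 and 2.68. CD9, the tetraspanin, was higher by 1.502 and 1.42 and SDC4, a heparan sulfate proteoglycan, by 1.85 and 1.73. In YAP-TFE3 the integrin subunits ITGB3 and ITGA5 were higher by 3.84 and 1.12, and LGALS1 was lower by a log2 difference of -1.14.

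Since PSG genes mark trophoblast, 20 other trophoblast genes were read. The placental hormone genes CGA, CSH1 and GH2 and the trophoblast antigen HLA-G held at most 3 counts in any library. Of 10 tested genes 6 were higher and 2 lower in the TAZ4SA-labelled libraries, beside 25.1% and 24.2% of all genes, 6 and 2 in YAP5SA, beside 22.7% and 21.6%, and 4 and 3 in YAP-TFE3, beside 25.6% and 22.6%. None was called in TAZ-CAMTA1, TFE3 or CAMTA1. KISS1, the kisspeptin precursor, was at 33.5 ± 9.57 CPM in TAZ4SA and 12.6 ± 3.36 in YAP5SA (edgeR adjusted p = 9.67e-15 and 4.15e-13), with at most 3 counts in an EV library. PAPPA, a secreted protease, was higher in YAP5SA by 1.32 ± 0.33 (edgeR adjusted p = 0.00218). PLAC1, PAPPA2 and GATA3 had means of 0.746, 0.0634 and 1.42 CPM in EV. They were at 5.77, 6.49 and 5.37 CPM in the TAZ4SA-labelled libraries, and at 4.94, 2.03 and 4.69 in YAP5SA. CYP19A1 went the other way, at 0.449 CPM in TAZ4SA and 0.191 in YAP5SA against 1.09 in EV. PEG10 was lower in both, by log2 differences of -3.16 and -2.58, and it dominates the summed level of the list, which ran from 533 to 690 CPM in TAZ4SA, 769 to 914 in YAP5SA, 2163 to 3084 in YAP-TFE3, 2577 to 3001 in EVsub, 1577 to 3606 in CAMTA1, 3612 to 4238 in EV, 3803 to 4913 in TFE3 and 5355 to 5910 in TAZ-CAMTA1. The part of these genes in the PSG values was not tested.

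Among 12153 other genes with a symbol and a mean of at least 100 counts, the 5 whose group pattern was closest to the family sum were found by the root mean square difference of centred group mean log2 CPM over the 8 groups. ANKRD1, a known target of YAP and TAZ, was closest, at 0.49. It was at 253 ± 26.2 CPM in the libraries labelled TAZ4SA, 189 ± 35.9 in YAP5SA, 18.8 ± 5.42 in EVsub, 21.0 ± 11.4 in CAMTA1, 8.53 ± 2.55 in YAP-TFE3 and 1.08 ± 0.437 in EV. IL7R, the interleukin 7 receptor, followed at 0.61, then CDH4, a cadherin, at 0.86, KRT80, a keratin, at 0.90 and SERPINB7, a serpin, at 0.95. The 8 points of each pattern come from the same libraries as the PSG sum.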

How the data were processed

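Poly(A) RNA of SW872 lines was sequenced by the authors with stranded, paired-end libraries, and reads were aligned to hg38 with Hisat2 inside bcbio-nextgen. The deposited tables give raw integer counts by Ensembl gene for each library, with no scaling and no pooling of replicates. The counting tool, its use of strand and its treatment of reads with several alignments are not given in the sources used here. The authors ran DESeq2 on salmon estimates, a different quantification.

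Counts were tested here in edgeR 4.0.16 (R 4.3.3) by its quasi-likelihood F test, on all 24 libraries, with 1 mean per group, TMM scaling and Benjamini-Hochberg adjustment over the 19997 genes that averaged 5 counts or more, at 0.05. CPM are edgeR values on TMM-scaled library sizes. Standard errors were derived from each F statistic. Groups at 3 or fewer counts per library give folds as lower bounds. Intervals were not computed for counts, and these floors cover counting error only. Symbols and coordinates are from GENCODE 44, matched for 56104 of 60279 identifiers. Scripts were tested on simulated data. Replicates of a group differed by more than sampling noise.

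The members and lists were chosen with earlier results of these data known. All 10 members are named. Of other lists, up to 4 called genes with the largest fold and a mean of at least 100 counts, every gene within 500 kb with such a mean, and the 5 genes of most similar pattern could be named, of which 1 is not reported here. CGA, CSH1, GH2, HLA-G, PLAC1, PAPPA2, GATA3, CYP19A1, CEACAM21, CEACAMP6, CEACAMP7 and CEACAMP8 were named after their values were seen. Alternatives were other filters, DESeq2 1.42.0 and its size factors, total-count scaling, fits on the compared groups only, the replicate block, fits without each library and other family sums.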

Additional observations from a re-analysis of the deposited data

How the results depend on the processing

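Of 993 alternative values of the members' log2 fold changes 977 kept their side of the threshold, 15 lost the call, 1 gained it and 0 reversed. A change of direction counted as a reversal only where the main or the alternative value passed the test. Direction was not compared for values that passed in neither. Of 117 alternative counts of members called, 111 stayed within 1.5 times. For YAP-TFE3 against EV, 4 became 1 when only the compared groups were fitted, since the filter on those libraries removed PSG2, PSG7 and PSG11 before the test. Without 1 library the count of members called ranged from 2 to 4 (2 without EV replicate 1, EV replicate 3 or YAP-TFE3 replicate 2). For TAZ4SA against YAP5SA, 4 became 2 without TAZ4SA replicate 2 or YAP5SA replicate 3, a range of 2 to 4. DESeq2 called 3 members in YAP-TFE3 against EV, and 10 in TAZ4SA and in YAP5SA against EV, including PSG3. Without PSG4, the log2 ratio of the sum was 0.82 for YAP-TFE3 against EV, -5.54 for YAP-TFE3 against YAP5SA and 3.19 for EVsub against EV, where other summed ratios moved by less than the replicate SD. With total-count scaling the sums in TAZ4SA and YAP5SA against EV were 6.498 and 6.43 in place of 6.70 and 6.63, in the same direction.

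Replicate numbers recur in each group, but no comparison had correlations over 0.1 in all 3 pairs (mean per comparison -0.03 to 0.19), so they were not read as pairs. With the replicate block, the counts of members called were 9 for TAZ4SA and for YAP5SA against EV, 4 for YAP-TFE3 against EV, 4 for TAZ4SA against YAP5SA, 9 for TAZ-CAMTA1 against TAZ4SA and for YAP-TFE3 against YAP5SA, and 0 for TAZ-CAMTA1 and TFE3 against EV and CAMTA1 against EVsub.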
